A study of Homo sapiens with 6 samples.

Results

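This account is about 31 genes for long noncoding RNAs, which are transcripts longer than small RNAs that are not read as protein, in MDA-MB-231, an established human line of breast cancer cells with mesenchymal features. The genes were taken by symbol from a fixed list, each was matched to an Ensembl gene ID in the deposited count tables, and all 31 of 31 were found among 28979 IDs. By role they were divided into 7 RNAs known to act or be retained in the nucleus, 20 genes that host small nucleolar RNAs (snoRNAs) and 4 other long noncoding RNAs. The data were 6 RNA sequencing libraries, 3 labelled Con and 3 labelled Ang. All 6 came from the same cell line, with no other genotype or agent named for a group. The series design speaks of breast cancer cells given exosomes, small vesicles that cells release, from normal or hypertrophic cardiomyocytes, and no label says which of these Con and Ang stand for. Nothing says that the libraries of a group came from separate cultures, so the p-values measure a spread between libraries that may be technical.

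Long noncoding RNAs differ in where they stay and what they do. MALAT1 gathers in nuclear speckles, where splicing factors are stored, and NEAT1 is the scaffold of paraspeckles, nuclear bodies that hold back RNAs and proteins. A snoRNA host gene carries snoRNAs in its introns. The snoRNAs guide chemical modification of ribosomal and other RNAs, while the spliced host RNA often reaches the cytoplasm, is bound by ribosomes and is removed by nonsense-mediated decay, so that its level depends on translation.

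Many snoRNA host genes, like ribosomal protein genes, are known to start at a C followed by a run of pyrimidines, the terminal oligopyrimidine tract that ties an RNA to the rate of translation. The starts are shown because this is a feature of the hosts that the choice of genes did not use. RefSeq start sites on GRCh38.p14 were available for 23 of the 31 genes, and the 30 bases from 10 before to 20 after the first transcribed base are printed on the transcribed strand. Capitals mark a C followed by at least 4 bases that are each C or T, with its first base within 5 bases of the start on either side. The hosts come first, in the order SNHG5 (chr6:85678714-85678743, minus strand), SNHG32 (chr6:31834906-31834935, plus strand), SNHG19 (chr16:2155339-2155368, minus strand), ZFAS1 (chr20:49278632-49278661, plus strand), SNHG12 (chr1:28581854-28581883, minus strand), SNHG7 (chr9:136728165-136728194, minus strand) and SNHG1 (chr11:62855866-62855895, minus strand). The hosts are followed by TUG1 (chr22:30969255-30969284, plus strand) and NORAD (chr20:36050941-36050970, minus strand), which hold no run. Among the starts not printed are hosts without a run, such as GAS5 and SNHG3, and the nuclear RNAs MALAT1 and LINC-PINT, which hold a run.
SNHG5: gcacttcggtCTTTTacgtcggccttcgcg
SNHG32: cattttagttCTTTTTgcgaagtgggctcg
SNHG19: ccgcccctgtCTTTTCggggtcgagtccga
ZFAS1: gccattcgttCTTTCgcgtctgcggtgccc
SNHG12: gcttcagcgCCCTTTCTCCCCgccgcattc
SNHG7: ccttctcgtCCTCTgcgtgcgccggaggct
SNHG1: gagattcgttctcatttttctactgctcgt
TUG1: ggggcgggccgagcgacgcagccgggacgg
NORAD: ctgccaagtcagttccggtccggcagagat

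Read from the first base itself, a C with at least 4 such bases after it was found in 5 of 16 hosts with a start in the table (SNHG5, SNHG32, SNHG19, ZFAS1 and SNHG12, whose run already begins 1 base earlier), in 0 of 3 nuclear RNAs and in 0 of 4 other long noncoding RNAs. Among all 27305 genes of the table the share was 5.14%. Within the wider window 9 of 16 hosts held a run, against 23.6% of all genes, and 2 of 3 nuclear RNAs and 0 of 4 others did so. SNHG1 starts with a C and a T-rich stretch broken by an A, and so was not counted. These are letters at annotated starts, and the libraries do not show which start was used.

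The libraries held 3369212 to 5437190 counts, of which the 31 genes took 0.147% to 0.202%. Con replicate 2 was the deepest library and had the largest share. In such bulk RNA, fewer cells holding an RNA and less of it per cell cannot be told apart. Levels are given as CPM, counts scaled to a common library size after edgeR's TMM normalization. A count of 0 allows up to 3 counts, or 0.503 to 0.936 CPM on this scale, for counting error only. The mesenchymal markers of the cell line summed to 2113 to 2808 CPM in Con and 2648 to 2802 CPM in Ang, and VIM, the vimentin gene, averaged 973 CPM. The 6 luminal or epithelial markers summed to 110 to 140 CPM in Con and 99.2 to 130 CPM in Ang. Most of this was ERBB2, a growth factor receptor gene, at a mean of 104 CPM, with EPCAM at 9.72, GATA3 at 3.88, CDH1 at 0.876, ESR1 at 0.306 and PGR at 0.028 CPM. Of 10 cardiomyocyte markers, MYH7, TNNT2 and MYL7 had no ID in the deposited counts, where no ID had 0 counts in all 6 libraries. The other markers summed to 7.13 to 19.02 CPM in Con and 7.51 to 12.9 CPM in Ang, mostly NPPA. Leukocyte markers summed to at most 7.37 CPM and fibroblast markers to at most 10.4 CPM, over the 2 of 5 and 3 of 5 markers that had an ID.

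NEAT1, the paraspeckle scaffold RNA on chromosome 11 (65422774 to 65445540), had the most counts of the 31 genes. Its values in replicates 1, 2 and 3 were 305, 578 and 510 CPM for Con and 413, 424 and 418 CPM for Ang, and values below keep this order. The Con libraries thus lay on both sides of the Ang libraries, which were close to each other, and the groups overlapped. The means were 465 ± 142 CPM for Con and 418 ± 5.48 CPM for Ang (SD, n = 3). The log2 fold change, Ang minus Con, was -0.15 ± 0.17 (SE) with a 95% interval of -0.50 to 0.19. Without Con replicate 2 it was 0.04 and without Con replicate 1 it was -0.38, so the sign depended on which Con library was left out, and neither value passed the test.

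MALAT1, the speckle RNA that lies next to NEAT1 on chromosome 11 (65497688 to 65506516), had 132, 183 and 170 CPM in Con and 159, 175 and 128 CPM in Ang. Its lowest library was Ang replicate 3 and its highest Con replicate 2, and the groups overlapped (log2 fold change -0.07 ± 0.18). Per kilobase of exon the counts of NEAT1 and MALAT1 were nearly level. The ratio of NEAT1 to MALAT1 ran from 0.898 in Con replicate 1 to 1.22 in Con replicate 2. In Ang it ran from 0.940 to 1.26. The libraries held RNA selected on poly-T beads, and whether these took up both RNAs equally was not tested.

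TUG1, an RNA found in both nucleus and cytoplasm on chromosome 22 (30969245 to 30979395), had 50.5, 69.4 and 59.9 CPM in Con and 67.0, 64.1 and 59.9 CPM in Ang, again with overlap (0.08 ± 0.20). The remaining nuclear RNAs had fewer than 10 CPM on average. KCNQ1OT1, the imprinted antisense RNA of the KCNQ1 locus, ran from 6.88 to 13.9 CPM. PVT1, the RNA transcribed next to MYC, ran from 5.61 to 9.43 CPM. LINC-PINT, a p53-induced RNA, ran from 0.624 to 5.36 CPM, and a further ID that GENCODE names LINC-PINT, with 0 to 15 counts a library, was kept out. HOTAIR, transcribed from the HOXC cluster, ran from 0.582 to 6.02 CPM, with 2 counts in Ang replicate 1 and at least 13 in every other library. None of these 4 separated the groups.

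NORAD, a cytoplasmic RNA that binds PUMILIO proteins, on chromosome 20 (36045622 to 36050960), had 246, 265 and 277 CPM in Con and 289, 282 and 230.8 CPM in Ang (0.02 ± 0.17). HCG18, a noncoding gene of the major histocompatibility region on chromosome 6 (30287397 to 30327150), had 86.6, 64.8 and 77.7 CPM in Con and 59.4, 92.8 and 72.3 CPM in Ang. CYTOR, an RNA linked to tumour growth, on chromosome 2 (87454781 to 87636740), had 8.17, 11.7 and 9.04 CPM in Con and 10.5, 13.8 and 11.5 CPM in Ang (0.30 ± 0.37). H19, an imprinted RNA of fetal tissue, had 2 counts over all 6 libraries and was not tested. Both groups were thus under the limit for H19, and overlapped for the other 3 genes.

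Among the snoRNA hosts the levels spanned a wide range. SNHG7, on chromosome 9 (136721366 to 136728184), had 128, 131 and 163 CPM in Con and 131, 162 and 170 CPM in Ang (0.14 ± 0.18). SNHG8, on chromosome 4 (118278709 to 118279823), had 106, 104 and 141 CPM in Con and 133, 124 and 128 CPM in Ang (0.14 ± 0.18). In both genes Con replicate 3 was the highest Con library and the groups overlapped. SNHG29, on chromosome 17 (16438822 to 16478678), had 87.4, 111 and 96.0 CPM in Con and 88.8, 105 and 93.8 CPM in Ang (-0.04 ± 0.18). GAS5, the growth arrest host gene whose RNA builds up when translation slows, on chromosome 1 (173863900 to 173868882), had 89.5, 80.1 and 74.2 CPM in Con and 97.6, 84.8 and 78.9 CPM in Ang (0.10 ± 0.18). Neither gene separated the groups.

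SNHG14, the imprinted host of the long snoRNA arrays of the Prader-Willi region on chromosome 15 (24978583 to 25419462), had 104, 64.0 and 109 CPM in Con and 89.1, 85.6 and 87.2 CPM in Ang. Its lowest value was in Con replicate 2, where NEAT1 had its highest, and the Ang libraries lay between the Con libraries (-0.08 ± 0.18).

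SNHG16, on chromosome 17 (76557766 to 76565348), was the 1 gene of the 25 tested whose groups did not overlap. It had 30.8, 31.8 and 26.5 CPM in Con and 48.1, 38.5 and 32.7 CPM in Ang, so that all 3 Ang libraries were above all 3 Con libraries, the nearest by less than 1 CPM. The means were 29.7 ± 2.83 and 39.8 ± 7.75 CPM (SD, n = 3), and the log2 fold change was 0.41 ± 0.24 with an interval of -0.05 to 0.88. The edgeR adjusted p was 0.999 (unadjusted 0.0820), and the adjusted p ran from 0.464 to 1 over the alternatives, in which the value stayed between 0.25 and 0.53. Of all 14547 tested genes 3.64% had groups that did not overlap with Ang higher, so 1 of 25 is near the background. No member had all Ang libraries below all Con libraries, as 4.52% of tested genes did, and 8.16% did not overlap in either direction. Of the exon bases of SNHG16, 30.6% lie under exons of a protein-coding gene on the other strand (ENSG00000284526), which averaged 599 ± 122 CPM over the Con libraries and 644 ± 46.4 CPM over the Ang libraries, and its part in the SNHG16 value was not tested.

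**Figure D1:**
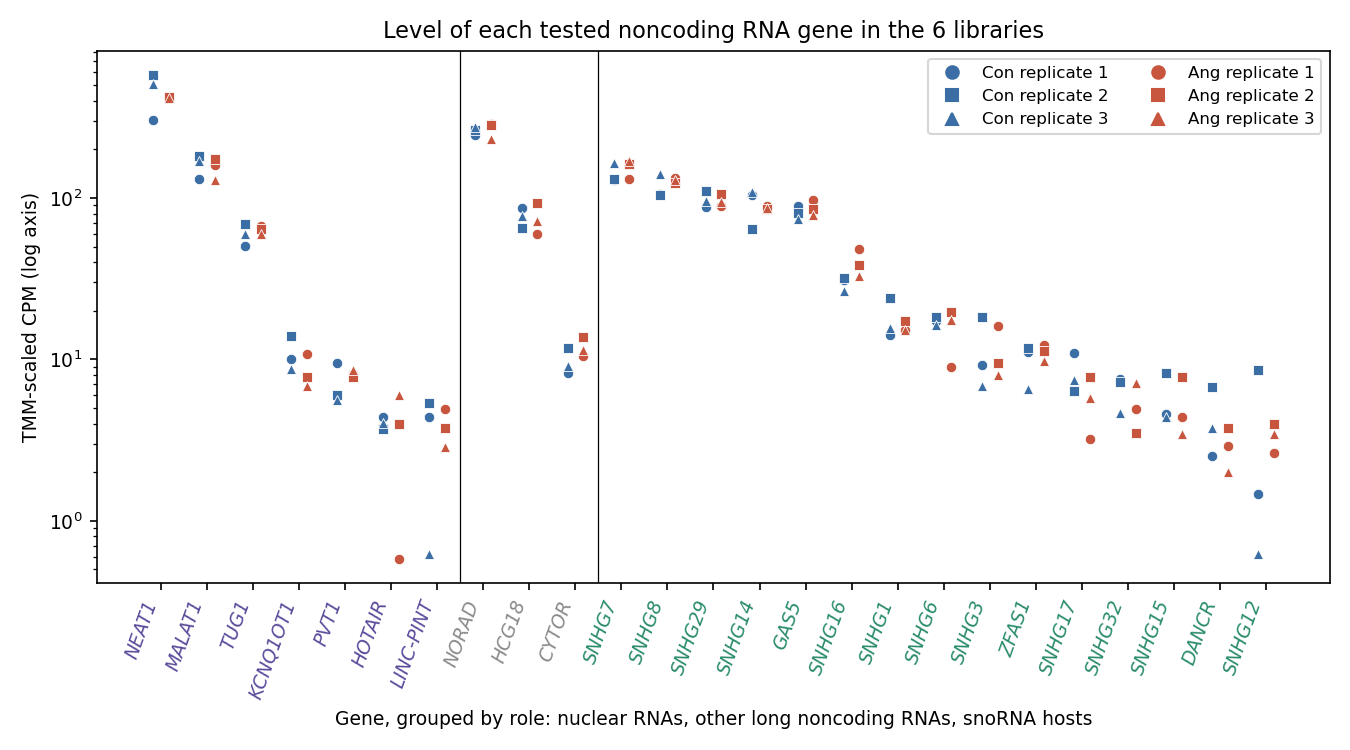
TMM-scaled CPM on a log axis for the 25 tested genes (each point a library; blue Con, red Ang; marker shape the replicate number), ordered by role and level. NEAT1 in Con runs from 305 to 578 CPM around Ang values of 413 to 424, and in SNHG16 all 3 Ang points lie above the Con points.

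Hosts of lower level showed the same overlap. SNHG1 had 14.3, 24.0 and 15.6 CPM in Con and 15.1, 17.3 and 15.2 CPM in Ang. SNHG6 had 17.2, 18.3 and 16.2 CPM in Con and 9.03, 19.5 and 17.5 CPM in Ang, the low library being Ang replicate 1. SNHG3 had 9.22, 18.3 and 6.86 CPM in Con and 16.0, 9.51 and 8.03 CPM in Ang. ZFAS1, the host antisense to the ZNFX1 promoter, had 11.1, 11.7 and 6.55 CPM in Con and 12.2, 11.3 and 9.75 CPM in Ang. In SNHG1 and SNHG3 the highest of the 6 values was in Con replicate 2.

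The 5 other tested hosts averaged under 10 CPM. SNHG17, SNHG32 and SNHG15 ran from 3.20 to 10.9, from 3.50 to 7.55 and from 3.44 to 8.21 CPM. DANCR, a host known as a differentiation antagonist, ran from 2.01 to 6.70 CPM, and SNHG12 from 0.624 to 8.55 CPM. SNHG12 had 51 counts in Con replicate 2 and 2 to 16 in the other 5 libraries. Its log2 fold change of -0.15 ± 0.66 became 1.60 ± 1.01 without that library, not past the test. SNHG5, SNHG20, SNHG19, SNHG9 and SNHG25 had 53, 18, 17, 13 and 6 counts over all 6 libraries and were too low to be tested. SNHG32 is listed as protein-coding, under its older name C6orf48, in GENCODE release 29.

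Few counts were of the snoRNAs themselves. RefSeq places 137 snoRNA genes within the bounds of the hosts, strand not considered, 84 of them in SNHG14, 11 in GAS5 and 9 in SNHG1. It places at least 1 in 19 of the 20 genes of the host group and 0 in SNHG20, which stays in the group by its name. Of these snoRNAs 5 had an ID in the count tables, with 26 counts in all over 6 libraries, 14 of them for SNORD104 in SNHG25. In SNHG25 the snoRNA thus had more counts than the host gene, which had 6. Libraries made from RNA selected on poly-T beads, as here per the labels' protocols, take up few RNAs without a poly(A) tail.

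CPM grows with the length of a gene, so the order of levels is read per kilobase of exon. SNHG8, with 923 exon bases, was highest at 133 CPM per kb, above 96.0% of 14351 tested genes with a GENCODE length. NORAD followed at 49.6, SNHG7 at 34.0, SNHG29 at 25.8, GAS5 at 23.2, NEAT1 at 19.4 and MALAT1 at 17.9 CPM per kb. SNHG8 stood clear of NORAD beyond the spread of both groups, while NEAT1 in Con (20.4 ± 6.23 CPM per kb) overlapped GAS5 (22.4 ± 2.12) and MALAT1 (18.3 ± 3.005). In Ang, NEAT1 at 18.4 ± 0.241 CPM per kb lay below GAS5 at 24.0 ± 2.63 in every library. MALAT1 and NEAT1 were above 79.9% and 81.1% of tested genes. Whether poly-T selection took up these RNAs as it did other genes was not tested, which bears on their place in this order. KCNQ1OT1, counted over 91667 exon bases, was lowest of the tested genes of the list at 0.106 CPM per kb, and LINC-PINT and CYTOR had 0.405 and 0.609. These lengths join all annotated exons, which lowers the value of genes with many rare isoforms. By the longest annotated transcript alone SNHG7 had 62.7, SNHG29 58.4 and GAS5 49.6 CPM per kb, all then level with or above NORAD at 49.6. For NEAT1 the joined exons (22767 bases) and the longest transcript (22743 bases) were nearly the same, so neither length weighs its shorter isoforms.

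Nuclear RNAs were compared with snoRNA hosts within each library, using the mean of log2(CPM per kb + 0.5) over genes with at least 10 counts, 7 nuclear RNAs and 19 hosts. With all 7 nuclear RNAs averaged, the hosts had the higher mean in every library. The nuclear mean includes KCNQ1OT1, the lowest of these genes at 0.106 CPM per kb, and the difference without it was not computed. The sign may rest on this gene alone, and so is not read as a trait of the nuclear RNAs. Whether poly-T selection took up nuclear RNAs and hosts equally was not tested either. The nuclear mean minus the host mean was -0.37, -0.57 and -0.46 for the Con libraries and -0.51, -0.48 and -0.25 for the Ang libraries. The group means were -0.47 ± 0.10 in Con and -0.41 ± 0.14 in Ang (SD, n = 3), a gap between groups smaller than either SD. Both means were highest in Con replicate 2, at 1.87 for nuclear RNAs and 2.44 for hosts. A score over chosen genes was given no test.

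NEAT1 alone held most of the counts of the nuclear RNAs. Nuclear RNAs took 34.8%, 46.8% and 42.1% of the counts of the 31 genes in the Con libraries and 39.4%, 38.9% and 39.2% in Ang. The snoRNA hosts took 42.3%, 34.6% and 37.8% in Con and 39.3%, 39.1% and 41.3% in Ang. The mean nuclear share was 41.2% ± 6.06 in Con and 39.1% ± 0.268 in Ang (SD, n = 3), and the groups overlapped.

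**Figure D2:**
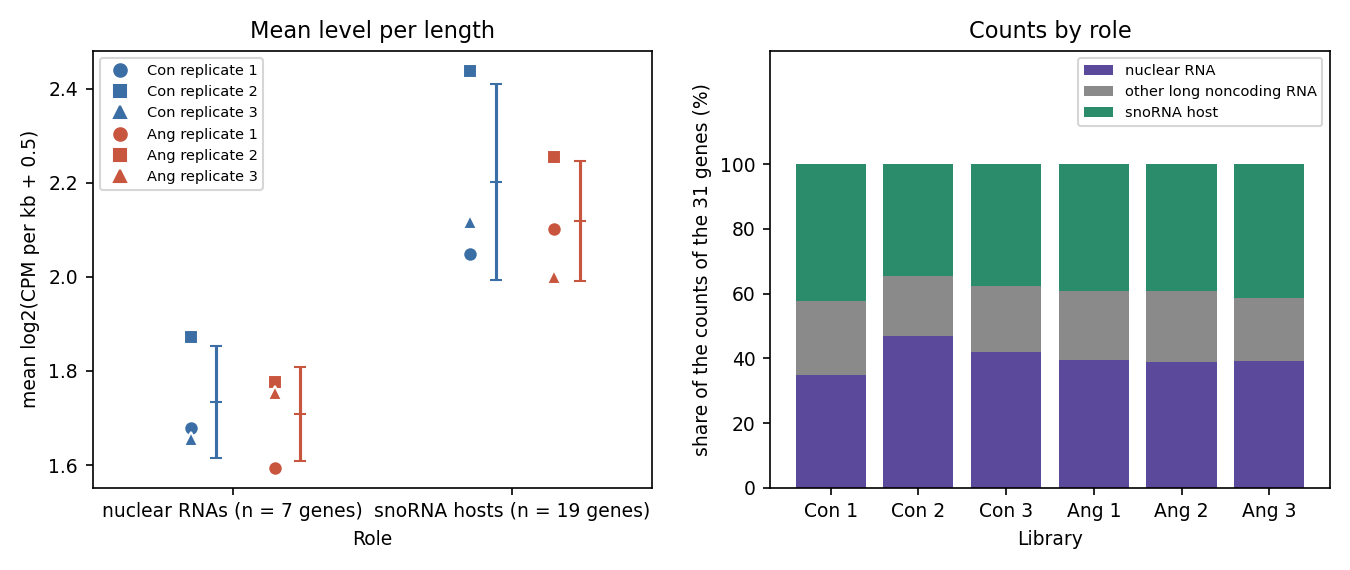
Left: mean of log2(CPM per kb + 0.5) over 7 nuclear RNAs and 19 snoRNA hosts in each library (points), with group mean and SD (bars). Right: share of the counts of the 31 genes held by each role in each library, in percent, where the nuclear share runs from 34.8% to 46.8% in Con and from 38.9% to 39.4% in Ang.

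No gene of the list passed the threshold between the groups. By edgeR's quasi-likelihood test with Benjamini-Hochberg adjustment over all 14547 tested genes, 0 of 25 tested members had an adjusted p under 0.05, where 0% of all genes did (0 genes). At an unadjusted p under 0.05 there were 0 of 25 members and 494 of all genes, or 3.4%. DESeq2 and limma-voom also called 0 members and 0 genes, with 0 members and 411 and 447 genes at an unadjusted p under 0.05. Values were above 0 for 10 members and below 0 for 15, with a median log2 fold change of -0.07, against 7151 above and 7396 below and a median of -0.01 over all tested genes. Of 2581 tested genes of long noncoding types in GENCODE 1132 were above 0, with a median of -0.04.

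By role, 3 of 7 nuclear RNAs, 2 of 3 other long noncoding RNAs and 5 of 15 snoRNA hosts were above 0, with medians of -0.07, 0.02 and -0.08. The values farthest from 0 belonged to low genes, DANCR at -0.59 ± 0.66 and SNHG17 at -0.56 ± 0.46. For 15 of 25 members the 95% interval stayed inside a 2-fold change either way, as it did for 64.2% of all tested genes. These were the 16 members with a mean of at least 10 CPM, except CYTOR. For 10 members a change of 2-fold in at least 1 direction lay within the interval, and a p that misses the threshold does not show that these were alike in Ang and Con.

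**Figure D3:**
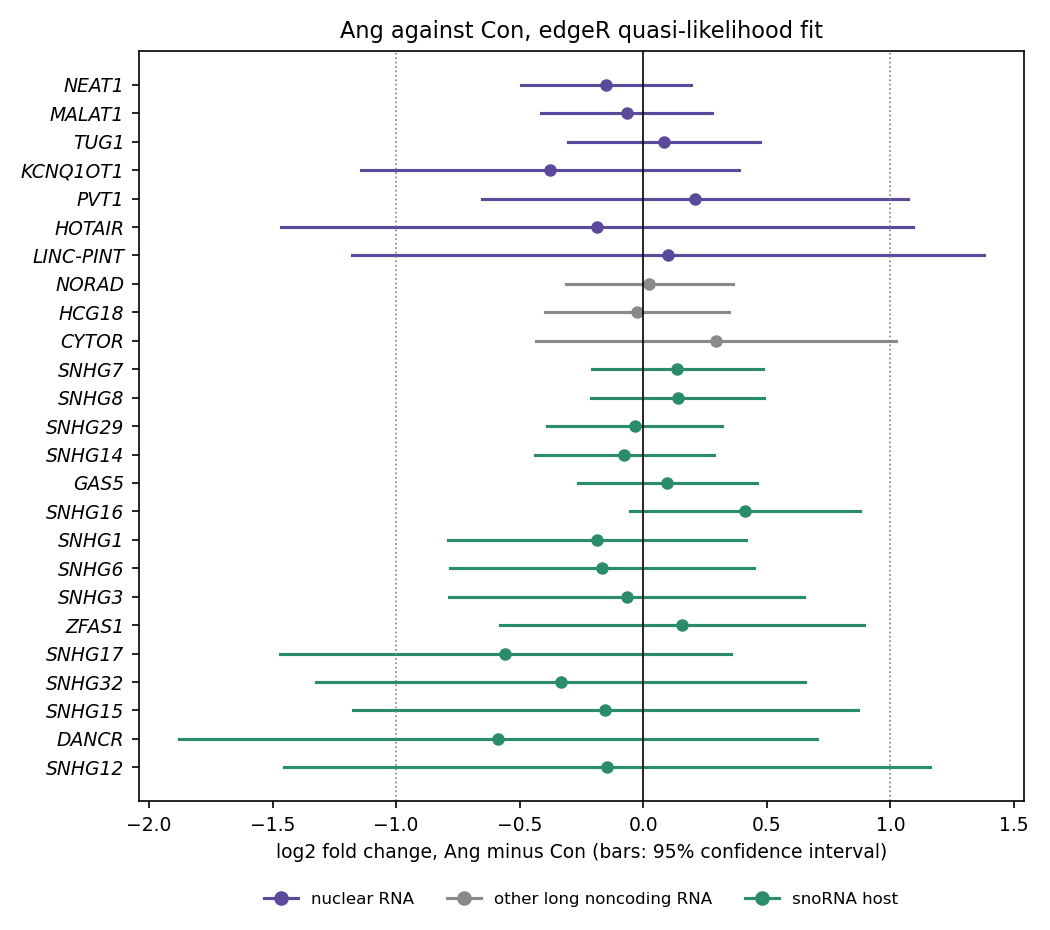
Log2 fold change, Ang minus Con, of the 25 tested genes from the edgeR fit, with 95% confidence intervals, coloured by role and ordered by level within a role. Every interval includes 0, and for 15 genes it lies within the dotted lines at a 2-fold change.

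Con replicate 2 stood apart for these genes. It held the highest of the 6 values for 11 of 25 tested members, among them 5 of 7 nuclear RNAs (NEAT1, MALAT1, TUG1, KCNQ1OT1 and LINC-PINT) and 6 of 15 hosts. Over all tested genes it was highest for 19.8%. The share was 26.5% of those with no exon base under an exon of the other strand and 14.2% of those with some. The median ratio of Con replicate 2 to the mean of the other 2 Con libraries was 1.21 over the members and 1.004 over all tested genes. Over tested genes with no such exon base it was 1.14, and over those with some it was 0.873. For the members of these kinds it was 1.30 and 1.21. Without this library 17 of the 25 members were above 0 with a median of 0.07, against 7374 of 14867 tested genes and a median of -0.003. The balance of directions of the members thus turned. By arithmetic, leaving out a Con library with high values raises Ang minus Con. Without this library 0 members were called, while 40 of the 14867 genes, or 0.269%, were. This library also had the most counts (5437190), the most genes detected (22778) and a TMM factor of 1.10, against 0.952 to 1.01 in the others. The chi-square per gene was 12.8 and 12.5 in its pairs with the other Con libraries and 6.79 between those. The part of these measures in the pattern was not tested.

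Several members lie opposite another gene, and the counts of the overlapping gene were often the larger. Of the 31 genes 18 had exon bases under exons of the other strand, 4 of them for at least 20% of their exon bases (ZFAS1, SNHG6, SNHG7 and SNHG16). The labels' protocols name no step that marks the strand, and the strand setting of the counter is not given in the sources used here. Reads of the paired genes thus cannot be told apart with certainty. Whether reads were counted to the intended strand was not tested, which bears on the levels of all listed genes, paired or not. For 12 members reported here that, like their main partner, had at least 50 counts, the partner had more counts per kb of exon in 10 pairs and at least 10-fold more in 6, with a median ratio of 6.90.

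TUG1 and CYTOR showed the widest gaps among genes of some abundance. ENSG00000269987, a noncoding gene whose 546 exon bases lie wholly under TUG1, had 6053 counts over the 6 libraries against 1542 for TUG1, a ratio per kb of 73.0. That ratio was 95.4, 51.1 and 94.4 for the Con libraries and 71.4, 67.0 and 79.8 in Ang. LINC01943, with 27.5% of its exon bases under CYTOR, had 11873 counts against 269, a ratio per kb of 529. LRRC75A, a protein-coding gene opposite SNHG29, had 25530 counts against 2439, and the ratio per kb was 13.7, 6.95 and 12.5 for the Con libraries. In 5 of the 12 pairs, CYTOR, TUG1 and SNHG29 among them, the ratio was lowest in Con replicate 2.

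GAS5-AS1, which shares 1.16% of the exon bases of GAS5, had 1343 counts per kb against 576 for GAS5. PVT1, HOTAIR, HCG18, SNHG12 and SNHG14 also had fewer counts per kb than their partners, a pseudogene, a small noncoding gene, HLA-L, TRNAU1AP and UBE3A, with ratios of 49.1, 34.2, 3.16, 1.91 and 1.72. The partner was lower per kb in SNHG6 with MCMDC2 and in SNHG7 with DIPK1B, where the ratios were 0.820 and 0.774. MALAT1 had 3959 counts and ENSG00000270117, which lies wholly under it, had 7. NEAT1, NORAD, SNHG8 and SNHG1 had no exon base under an annotated exon of the other strand. None of the 12 partners differed between the groups past the threshold (edgeR adjusted p 0.999 for each).

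**Figure D4:**
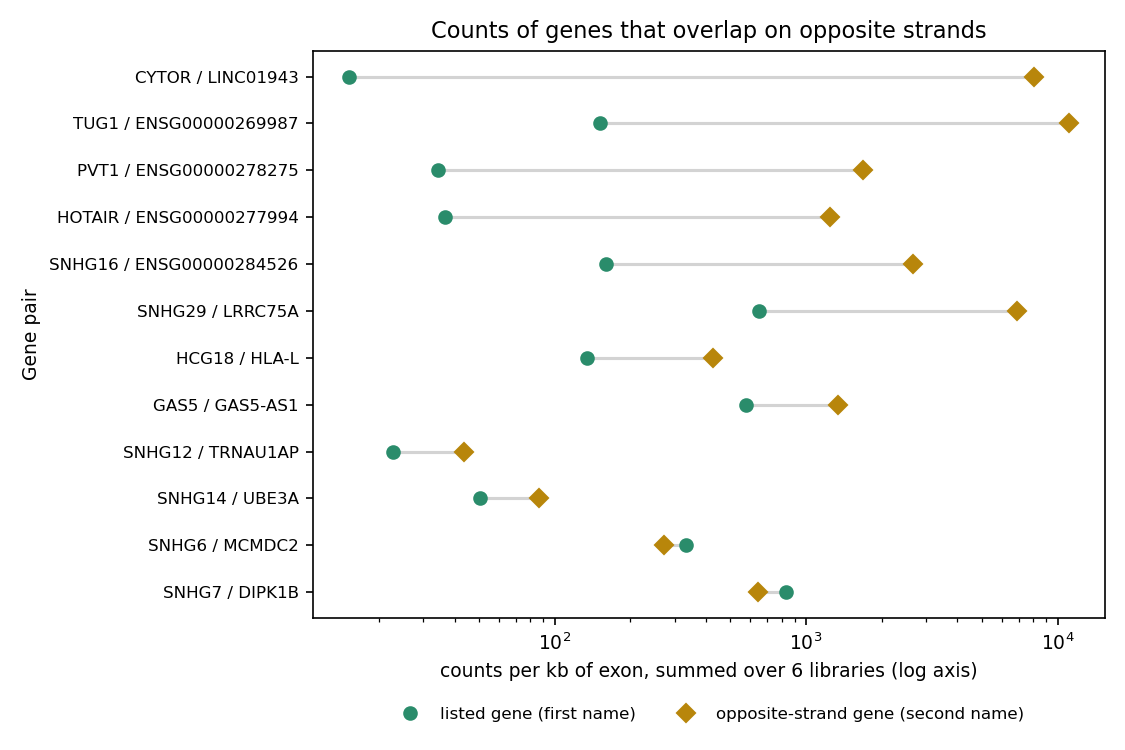
Counts per kb of exon over the 6 libraries (log axis) for 12 listed genes (circles) and the gene sharing most exon bases on the other strand (diamonds), for pairs with at least 50 counts each. The diamond lies to the right in 10 pairs, farthest for CYTOR and TUG1.

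Genes that act with these RNAs were read from the same fit, and none passed the threshold (0 genes called in each list). Among 17 tested genes of the snoRNA particle and its assembly, 10 were above 0 with a median of 0.04, which became 11 and 0.14 without Con replicate 2. Over all genes tested without that library, 7374 of 14867 were above 0, with a median of -0.003. NHP2, a core protein of box H/ACA particles, averaged 39.6 ± 6.22 CPM for Con and 51.8 ± 7.58 CPM for Ang (0.38 ± 0.22). Its groups did not overlap, and 27.4% of its exon bases lie opposite other exons. It was the 1 gene of 17 with all Ang libraries above all Con libraries, as 3.64% of all tested genes were. NOP10 of the same particle averaged 10.1 ± 4.21 CPM for Con and 14.0 ± 5.10 CPM for Ang. RUVBL1 and ZNHIT3, assembly factors with the most counts of the list, had 632 ± 119 and 294 ± 71.8 CPM in Con. In Ang they had 581 ± 28.8 and 282 ± 24.2 CPM. Of their exon bases 10.4% and 17.5% lie opposite other exons, and the part of this in their levels was not tested.

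Nonsense-mediated decay, the pathway that removes many spliced host RNAs, had 10 of 16 values above 0 and a median of 0.06. UPF1, its central helicase, had 36.47, 35.7 and 19.96 CPM in Con and 41.1, 36.54 and 51.6 CPM in Ang (0.47 ± 0.23, edgeR unadjusted p 0.0453, adjusted p 0.999). The groups did not overlap, though Ang replicate 2 was barely above Con replicate 1. UPF1 was named by rule for its small p. In this list 2 of 16 genes had all Ang libraries above all Con libraries, as 3.64% of all tested genes did. At an edgeR unadjusted p under 0.05 there was 1 of 16, against 3.4% of all tested genes. EIF4A3, of the exon junction complex, had 38.2 ± 7.80 and 50.4 ± 4.63 CPM. SMG1, the kinase of UPF1, had 67.5 ± 3.51 and 66.8 ± 7.19 CPM. Without Con replicate 2, 14 of 16 were above 0 with a median of 0.23, and 0 were called. Over all genes tested that way 7374 of 14867 were above 0.

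Proteins of paraspeckles and speckles, the bodies of NEAT1 and MALAT1, had 9 of 15 values above 0 and a median of 0.04, which became 12 of 15 and 0.16 without Con replicate 2. SRRM2, a speckle scaffold, averaged 291 ± 53.1 CPM for Con and 344 ± 12.6 CPM for Ang, HNRNPK 235 ± 5.38 and 241 ± 35.0 CPM, and the splicing factor SRSF1 25.6 ± 3.43 and 21.2 ± 4.12 CPM. Protein-coding snoRNA hosts had 18 of 25 values above 0 and a median of 0.07. Among them EEF2, the elongation factor, had 695 ± 173 and 757 ± 47.1 CPM, RPL13A 539 ± 78.3 and 623 ± 10.5 CPM, RPL3 345 ± 98.9 and 402 ± 4.42 CPM, and EIF4A2 136 ± 15.2 and 166 ± 17.3 CPM. Without Con replicate 2, 21 of 25 were above 0 with a median of 0.18, and 1 gene, RPL3, was called. Of all genes tested that way 7374 of 14867 were above 0 and 0.269% were called. Con replicate 2 ran high in tested genes with no exon base under the other strand (median ratio 1.14). The count above 0 over those genes alone was not made, so the shift is not read as a trait of these lists.

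The 5 tested noncoding snoRNA hosts outside the list had 1 value above 0 and a median of -0.31. EPB41L4A-AS1, with 49.6% of its exon bases opposite exons of other genes, averaged 16.8 ± 1.49 CPM for Con and 13.8 ± 6.32 CPM for Ang, SNHG22 7.42 ± 3.58 and 5.92 ± 3.74 CPM, SNHG4 6.75 ± 3.72 and 4.93 ± 3.65 CPM, and SNHG18 3.799 ± 1.76 and 2.01 ± 1.43 CPM. All 4 overlapped between groups. Of 11 other tested long noncoding RNAs 6 were above 0, with a median of 0.02, and 7 with a median of 0.11 without Con replicate 2. FTX, a noncoding gene of the X-inactivation centre, overlaps genes of the other strand over 44.3% of its exon bases and had 378 ± 91.7 and 361 ± 12.7 CPM, and UCA1, a cancer-associated RNA, 174 ± 39.7 and 168 ± 10.4 CPM. JPX, overlapped over 78.0% of its exon bases, had 25.8 ± 5.47 and 30.9 ± 14.0 CPM and NUTM2A-AS1 14.4 ± 2.91 and 10.2 ± 5.27 CPM.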

How the data were processed

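The authors deposited raw counts by Ensembl gene ID, 1 table for each of the 6 libraries. Per the submitters' processing notes, HTSeq 0.9.1, DESeq 1.39.0 and genome build GRCh38 were used. For the aligner, annotation and strand setting nothing was stated in the sources used. Per the labels' protocols, poly-T-selected RNA was primed with random oligonucleotides.

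The counts were tested with edgeR 4.0.16 in R 4.3.3 (filterByExpr, TMM, robust quasi-likelihood test, Benjamini-Hochberg threshold 0.05). Log2 fold changes are Ang minus Con. Limma 3.58.1 (limma-voom) and DESeq2 1.42.0 were alternatives. Of 28979 IDs 28192 were in GENCODE release 29 on GRCh38, which gave coordinates and exons, and bedtools 2.31.1 found overlaps between strands. No row lacked a gene. In 3 runs on counts simulated for the 14547 tested genes of this comparison, with 200 changed genes a run, the test called 43.7% of 2-fold and 85.7% of 4-fold changes, and 98.6% and 100% at 50 CPM or more. Total counts and limits stand in the results.

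Members and lists were chosen with earlier results of these data known. Genes were named by rule: values in every library for members of at least 10 CPM, and of each other list the 2 genes with the smallest p and the 2 most abundant. Library pairs within a group differed by a chi-square of 3.60 to 12.8 per gene, more than counting noise, so each library was counted separately. This does not show that they came from separate cultures. Same-numbered libraries were checked for pairing, with the result under the alternatives. Results for 1 opposite-strand pair, left out of the pair counts and their median, and for 1 gene of a context list are not reported here.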

Additional observations from a re-analysis of the deposited data

How the results depend on the processing

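Under DESeq2-type RLE scaling, with all genes kept, with at least 1 CPM in 3 libraries, and with DESeq2, limma-voom or only genes free of opposite-strand exons, 0 genes and 0 members were called. Leaving out 1 library gave 0 to 40 genes, 40 without Con replicate 2 and 1 without Con replicate 1, and 0 members each time. The cause was not tested. With the replicate block 0 genes and 0 members were called. Deviations from the group mean correlated at 0.0370, 0.0675 and 0.0356 between same-numbered libraries. Each library was highest with its own number, but these are too small to take the numbers as pairs. Over 308 alternative values of the 25 tested members 280 kept their sign and 28 changed it, none past the threshold, and the adjusted p ran from 0.464 to 1. The nuclear minus host mean, -0.47 in Con and -0.41 in Ang, stayed below 0 in every alternative run. None of these left out KCNQ1OT1, the lowest gene per kb, so whether the sign depends on that gene was not tested. It may rest on that gene alone, and the alternatives do not show a trait of the nuclear RNAs. In Con the nuclear minus host mean was -0.60 with a pseudocount of 0.1, -0.80 by longest transcript, -0.35 with all members and -0.62 without TUG1. In Ang it was -0.72 by longest transcript and -0.59 without TUG1. By construction these change the lengths, the weight of low genes or the genes averaged. At this depth 2-fold changes of low genes would often be missed.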
